A study of Mus musculus with 2 samples.

Results

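Ciliated and club cells of the airway lining were examined in lungs of wild-type C57BL/6 mice kept in room air (21% O2) or hyperoxia (80% O2) from birth to postnatal day 14. Hyperoxia of newborn mice serves as a model of bronchopulmonary dysplasia, the chronic lung disease of preterm infants. Whole lungs of 8 mice per group were dissociated and pooled into 1 single-cell RNA library per group, so no replicate exists and no comparison carries a test. Each interval given is a 95% interval for counting error only. It does not include the spread between mice, and the oxygen level cannot be told apart from library or preparation. The room air library held 4234 barcodes with 39593888 unique molecular identifiers (UMIs, counted molecules), and the hyperoxia library held 13223 with 111934936. Barcodes had to have 500 genes or more, with no more than 20% of UMIs from mitochondrial genes, and 3809 and 11711 were kept. The libraries had 17 barcode sequences in common, of which 0 were members.

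Members were chosen by measured values. A kept barcode without Ptprc (leukocyte) and Cdh5 (endothelial) UMIs was ciliated when Foxj1, Tmem212 and Ccdc153 together had at least 3 UMIs. It was club when it was not ciliated, had at least 8 UMIs of Cyp2f2 and had at least 1 UMI over Epcam, Krt8 and Krt18. This selected 116 of 15520 kept barcodes. The 69 ciliated barcodes comprised 19 from room air and 50 from hyperoxia. The 47 club barcodes comprised 5 from room air and 42 from hyperoxia. The ciliated threshold had few barcodes near it. In room air 0 barcodes had a marker sum of 2 and 1 had a sum of 3, and in hyperoxia these numbers were 7 and 2. For Cyp2f2, 1 barcode in each library had 7 UMIs. The requirement for 0 UMIs of Ptprc and Cdh5 was costly, since it removed 6 of 25 barcodes with ciliated markers and 3 of 8 with club markers in room air, and 14 of 64 and 28 of 70 in hyperoxia. Most of these had exactly 1 UMI of either gene, namely 4 and 1 in room air and 9 and 20 in hyperoxia.

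Multiciliated cells carry beating cilia that move mucus out of the airways. Each motile cilium is built on a ring of microtubule doublets around a central pair, and dynein motor arms on the doublets slide them past each other. Foxj1 and the RFX factors switch on the genes of this machine, and Notch signalling holds cells in the secretory fate. Club cells secrete uteroglobin (Scgb1a1) and other small proteins, carry out much of the lung's cytochrome P450 metabolism and act as progenitors of the bronchiolar lining. Mucous and goblet-type secretory cells make gel-forming mucins such as Muc5b.

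The labels of both kinds were checked against their markers, as a description, because these genes or genes of the same cells chose the members. Genes were ranked by the smaller of their 2 library ratios over all other kept barcodes. First in ciliated barcodes was 1700007K13Rik, at 232.1 CPM (UMIs scaled to a common total of 1e+06) in room air and 240.5 CPM in hyperoxia. Elsewhere it was at 1.59 and 1.43 CPM. It was followed by axoneme and cilium genes, some with a greater ratio in hyperoxia (Spag17 241.1, against 168.4). Spag17, a central pair protein, stood at 148.6 and 188.9 CPM. Sntn, a protein of the ciliary tip, stood at 133.4 and 198.6 CPM, and Dynlrb2, a dynein light chain, at 532.5 and 669.1 CPM. The leading genes of club barcodes were secretory. Among them were Bpifa1, Bpifb1, Muc5b, Scgb3a1 and Scgb3a2, with Scgb1a1 at 339200 CPM in room air, against 299300 in hyperoxia. The rule did not use Scgb1a1. It was present in 5 of 5 room air club barcodes with at least 500 UMIs, and in 36 of 42 hyperoxia club barcodes.

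**Figure D1:**
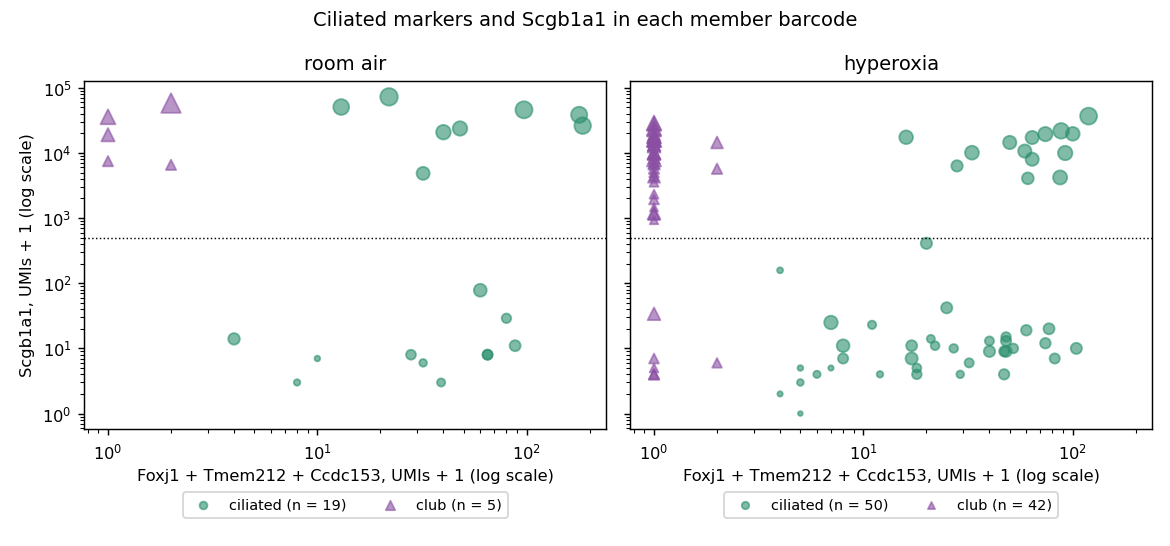
Each point is 1 member barcode, with the sum of Foxj1, Tmem212 and Ccdc153 UMIs plus 1 on the horizontal log axis and Scgb1a1 UMIs plus 1 on the vertical log axis, and with a larger mark for more UMIs in all. The dotted line at 500 Scgb1a1 UMIs parts the ciliated barcodes into 8 above and 11 below in room air and into 14 above and 36 below in hyperoxia, and 6 hyperoxia club barcodes lie below it.

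In raw UMIs, ciliated barcodes fell into separate ranges of Scgb1a1. No ciliated barcode lay between 409 and 4074 Scgb1a1 UMIs. Above this gap were 8 of 19 in room air (42.1%, Clopper-Pearson interval 20.3 to 66.5%) and 14 of 50 in hyperoxia (28.0%, 16.2 to 42.5%). Below it were 11 and 36. In the upper range Scgb1a1 took 11.1 to 54.0% of a barcode's UMIs in room air and 7.08 to 37.3% in hyperoxia. In the lower range it took 0.0298 to 0.393% and 0 to 8.14%, so that 1 shallow hyperoxia barcode lay inside the upper range by this measure. The upper-range barcodes were also deep, with medians of 98569 (room air) and 52949.5 UMIs (hyperoxia), against 14428 and 13341 in the lower range. Single club barcodes had a median of 47446 and 31090.5 UMIs, and type II alveolar (AT2) barcodes had 15888 and 14644. In the lower range the pooled Scgb1a1 level was 1004 and 1658 CPM. Of the 886 hyperoxia UMIs 566 lay in 2 of 36 barcodes, without which the level was 630.1 CPM, and 77 of the 164 room air UMIs lay in 1 of 11, without which it was 713 CPM. B cells, which do not make this protein, had 628 and 718 CPM.

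The upper range also held fewer cilium genes at equal depth. After each barcode was thinned to 2000 UMIs, which left out 1 room air and 5 hyperoxia ciliated barcodes, the lower range had a median of 42.5 of 151 cilium genes in room air and 39 in hyperoxia. The upper range had 14 and 23.5, club barcodes 1 and 2, and AT2 and B cell barcodes 2 each. Before thinning, the upper range had a median of 113.5 cilium genes in both libraries and the lower range 99 and 98. Thinned lower-range barcodes had a Scgb1a1 UMI in 70.0% and 64.5% of cases. This was no more than in B cells, where 73.4% and 74.7% had one at the same depth (unthinned B cell medians 4632 and 2950 UMIs). Cyp2f2 behaved otherwise. In the lower range it had a UMI in 80.0% and 71.0% of thinned barcodes, against 2.24% and 1.09% of B cells. Whether an upper-range barcode is 1 cell expressing both programs or 2 cells in 1 droplet was not tested. A neighbour-based doublet ranking removed 0 ciliated barcodes in room air and 8 in hyperoxia, of which 1 lay in the upper range. The split at 500 UMIs was chosen after the values were seen, and results for ciliated barcodes are therefore given for all and for the lower range alone.

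Some members carried transcripts of other lineages. In hyperoxia 4 of the 6 club barcodes under 500 Scgb1a1 UMIs had 3116 to 7472 UMIs of Sftpc, the surfactant protein of AT2 cells, with 20 to 28 of Lamp3. The other 2 had Krt15 at 94 and 60 UMIs and Krt5, a basal cell keratin, at 9 and 10 UMIs. Among ciliated barcodes Sftpc reached 1248 and 1785 UMIs in 2 from room air and 7351 and 3329 in 2 from hyperoxia. Col1a1, a collagen of stromal cells, reached 135 UMIs in 1 room air barcode and 364 and 220 in 2 from hyperoxia. The room air barcode with 135 had 3 marker UMIs and 0 of Epcam, Krt8 and Krt18. With the barcode of 1785 Sftpc UMIs it held 41.8% of the room air UMIs of the lower Scgb1a1 range described above, so lower-range values rest on few barcodes. Leaving out lower-range barcodes with at least 1000 Sftpc or 100 Col1a1 UMIs, a choice made after the values were seen, left 9 of 11 in room air and 32 of 36 in hyperoxia. For a number of genes the value without these Sftpc-rich or Col1a1-rich barcodes is given as well.

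Ciliated cells made up 0.499% of kept barcodes in room air (19 of 3809, interval 0.301 to 0.778%) and 0.427% in hyperoxia (50 of 11711, 0.317 to 0.563%). The difference, hyperoxia minus room air, was -0.0719 percentage points (-0.372 to 0.168). Club cells made up 0.131% in room air (5 of 3809, 0.0426 to 0.306%) and 0.359% in hyperoxia (42 of 11711, 0.259 to 0.485%), a difference of 0.227 points (0.0260 to 0.381). The difference in ciliated share was thus within counting error, and that in club share was larger than counting error. The club interval reached 0 when only barcodes with at least 500 Scgb1a1 UMIs were counted (0.176 points, -0.0214 to 0.324). It also did so with stricter markers (0.193 points, -0.00562 to 0.343) and over barcodes with at least 1 Epcam UMI and without Ptprc and Cdh5 (2.45 points, -0.822 to 4.60, from 4 of 202 and 38 of 858). Of ciliated and club barcodes together, club barcodes were 20.8% in room air (7.13 to 42.2%) and 45.7% in hyperoxia (35.2 to 56.4%). Among 245 barcodes called as any of 4 epithelial kinds in room air, a different denominator, 7.76% were ciliated, 2.04% club, 67.4% AT2 and 22.9% type I alveolar (AT1). Among 989 in hyperoxia these shares were 5.06%, 4.25%, 79.2% and 11.5%.

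**Figure D2:**
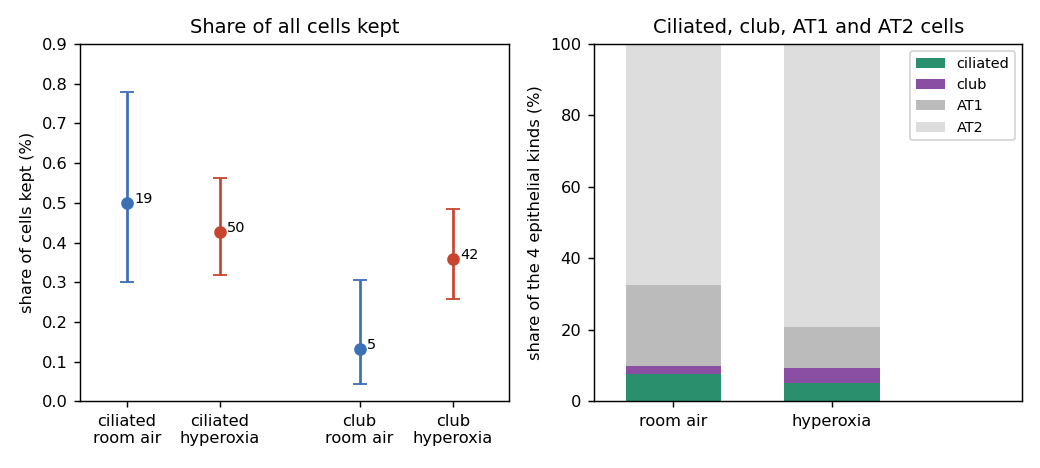
On the left, points give the share of kept barcodes (%) that were ciliated or club in each library, bars are 95% Clopper-Pearson intervals for counting error and the numerals are barcodes. On the right, stacked bars give the make-up (%) of the 4 epithelial kinds, in which club barcodes were 2.04% in room air and 4.25% in hyperoxia.

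Expression was compared as the ratio of CPM, the summed UMIs of a gene over all UMIs of the kind in a library. Genes with a mean of at least 50 CPM over the libraries and at least 50 UMIs in all were compared, and a ratio at or past 2-fold is counted as a difference of size. For all ciliated barcodes this left 2654 genes, of which 162 (6.1%) were at least 2-fold higher in hyperoxia and 17 (0.641%) at least 2-fold lower. Scgb1a1 took 307000 CPM in room air, against 150000 in hyperoxia, and the median gene was 0.37 higher on the log2 scale. With the total taken without Scgb1a1 this median was 0.07, and 86 genes were higher and 60 lower. TMM factors, which scale on the bulk of genes, gave 55 higher and 52 lower. In the lower range, 172 of 2638 genes (6.52%) were higher and 116 (4.4%) lower, with a median log2 ratio of 0.01. For club barcodes 78 of 1722 genes (4.53%) were higher and 72 (4.18%) lower, with a median of 0.07. For club barcodes with at least 500 Scgb1a1 UMIs, 63 of 1687 (3.73%) were higher and 77 (4.56%) lower.

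In ciliated cells, genes of the outer dynein arms, the motors that drive the ciliary beat, were higher in hyperoxia. Dnah5, an outer arm heavy chain, was at 81.3 CPM in room air, against 223.3 in hyperoxia (log2 ratio 1.46), and the lower range gave 1.51. The median single barcode had 90.9 CPM in room air, with a highest value of 298.2, and 291.2 CPM in hyperoxia. The barcodes overlapped, but 25 of 50 in hyperoxia exceeded the highest of 19 in room air, a count not made for all genes. Its partner heavy chains differed in the same direction. Dnah9 was at 40.1 and 111.3 CPM (log2 ratio 1.47, 0.67 in the lower range, 0.29 there without Sftpc-rich or Col1a1-rich barcodes), and 4 of 50 hyperoxia barcodes exceeded the highest in room air. Dnah11 was at 39.0 and 85.9 CPM (1.14, 0.90 in the lower range). Of 17 listed outer arm and docking genes 11 were in the files and 5 passed the limits on level. All 5 were higher and 3 were past 2-fold, with a median of 1.14. Among all genes 81.95% were higher and 6.1% past 2-fold higher, with a median of 0.37. With the total without Scgb1a1 Dnah5, Dnah9 and Dnah11 were at 1.16, 1.18 and 0.84. With TMM factors they were at 1.11, 1.13 and 0.79. The 6 that passed in the lower range were all higher too, with a median of 0.76, and 1 was past 2-fold. There 50.7% of all genes were higher and 6.52% past 2-fold higher, with a median of 0.01. Without Sftpc-rich or Col1a1-rich barcodes 6 passed and were all higher, with a median of 0.45 against -0.051 for all genes, and Dnah5 was at 1.64.

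The rest of the ciliary machine differed little from other genes once Scgb1a1-rich barcodes were left out. The inner arm and nexin link genes had a median log2 ratio of 0.56 over 12 genes in all barcodes and 0.08 in the lower range. Radial spoke genes gave 0.55 over 7 genes and -0.19, central pair genes 0.40 over 10 and 0.10, and dynein assembly factors 0.46 over 4 and -0.65. The 33 axonemal and cilium component genes gave 0.39 and -0.26. These medians lay near those of all genes, 0.37 and 0.01, and the assembly factors in the lower range, where 3 genes passed, were the farthest below. Intraflagellar transport genes, whose products carry cargo along the growing cilium, had a median of 0.58 over 18 genes in all barcodes and -0.12 in the lower range. Within this group Wdr35 was at 34.7 and 74.7 CPM (log2 ratio 1.11, 1.42 in the lower range). The retrograde motor Dync2h1 was at 85.7 and 175.5 CPM (1.03, 1.07 in the lower range).

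Of 11 transcription factors of the program 3 passed the limits in ciliated cells, and Myb was the 1 past 2-fold, with 0 past it in the lower range. Of all genes 6.1% were past 2-fold higher, and 6.52% in the lower range. Foxj1, which chose the members, was at 274.4 and 458.5 CPM, and it is given as a description. The single-barcode medians of Foxj1 were close, 500.5 and 519.4 CPM. Myb, which acts early in multiciliated cell differentiation, was at 80.3 CPM in room air, against 223.3 in hyperoxia (log2 ratio 1.48, 0.65 in the lower range, 0.18 there without Sftpc-rich or Col1a1-rich barcodes). Rfx3, an RFX factor of ciliary genes, was at 46.6 and 86.6 CPM (0.89). Tmem212 and Ccdc153, also used by the rule, were at 518.4 and 678.1 CPM and at 373.1 and 342.0 CPM.

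**Figure D3:**
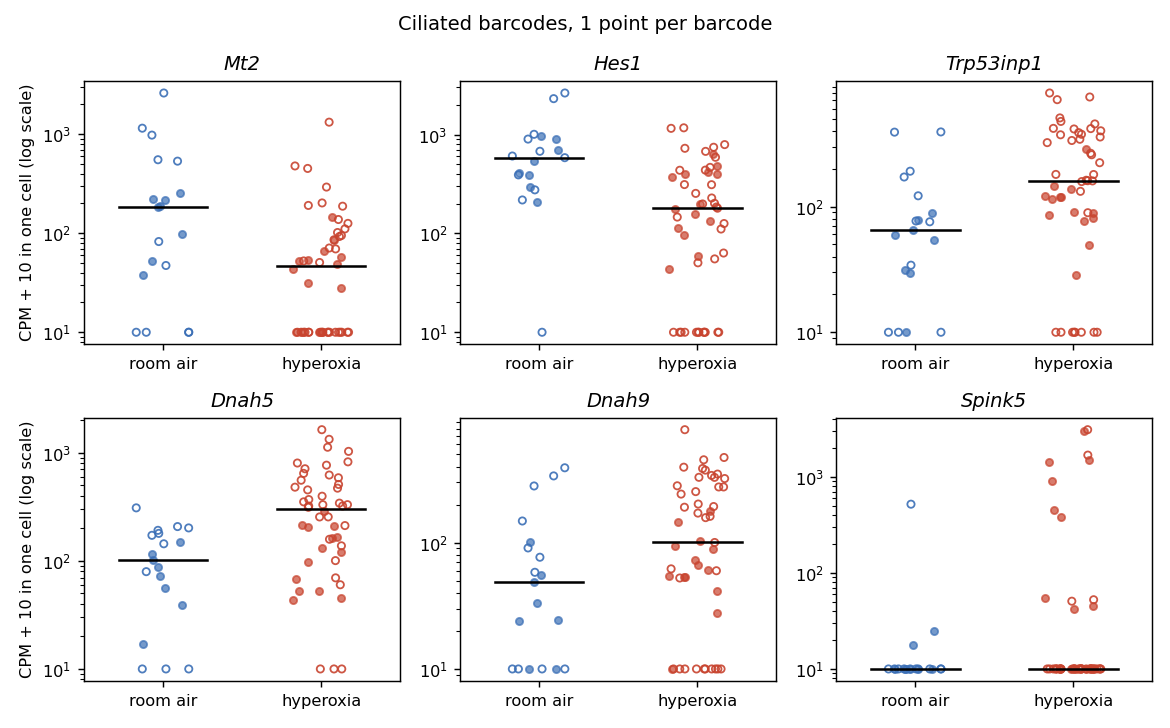
Each point is 1 ciliated barcode (19 in room air, 50 in hyperoxia), with CPM plus 10 on a log axis, filled where Scgb1a1 was at 500 UMIs or more and open otherwise, and bars mark medians. Mt2 and Hes1 were lower in hyperoxia (medians 174.2 and 36.3 CPM, and 573.5 and 169.1 CPM), and Trp53inp1 and Dnah5 were higher.

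RFX factors bind the X-box, and the promoters of the cilium genes were read for it to show where such a sequence lies. The windows run from 250 bases before to 50 bases after each RefSeq start site in mouse build GRCm38.p6, and 124 of 160 listed cilium genes were matched. The X-box was searched on both strands as GTTNCC, then 0 to 3 bases, then GGNAAC. It lay in 6 of 138 cilium windows (4.35%) and in 0.804% of all 32851 windows. The forkhead sequence GTAAACA, the kind bound by Foxj1, lay in 4.35% of cilium windows and 3.65% of all. The 6 matches are shown, each as 30 bases in the direction of its gene with the match in capitals, since they are the cilium genes with this sequence next to their start. They are Iqca (chr1:90153515-90153544, minus strand), 1110017D15Rik (chr4:41507761-41507790, minus), Ccdc151 (chr9:22002647-22002676, minus), Fam183b (chr11:58801955-58801984, minus), Ift57 (chr16:49699226-49699255, plus) and 1700010I14Rik (chr17:8988300-8988329, plus).
Iqca: gccttgcaGTTGCCACGGAAACggaaacat
1110017D15Rik: gtaaatgtGTTGCCCGGCAACaactcgaaa
Ccdc151: cgcgggcgGTTTCCTTGGGAACgtgggcgg
Fam183b: gaacatccGTTGCCTGGAAACtgtagaaga
Ift57: gccctgcgGTTGCCTGGTAACggtggggac
1700010I14Rik: tatttactGTTTCCATGGCAACtgcagctt
The 3 of these genes given here were short of 2-fold between the libraries. In ciliated cells Ccdc151, an outer arm docking protein, was at 28.2 CPM in room air, against 52.3 in hyperoxia. Ift57, an intraflagellar transport protein, was at 77.0 and 117.2 CPM, and Fam183b at 322.1 and 389.8 CPM. In club cells Ccdc151 and Fam183b had 0 UMIs in both libraries. A match describes the sequence only and does not show that a factor binds there.

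Genes lower in hyperoxia in ciliated cells included Mt2, Hes1, Sfn and Cdkn1c. Mt2 (chr8:94172664-94173568), a metal-binding metallothionein, had 199.6 CPM (171.8 to 230.6) in the room air group. In the hyperoxia group it had 55.3 CPM (43.4 to 69.4), and the log2 ratio was -1.85. The lower range gave -2.503, and -2.87 without Sftpc-rich or Col1a1-rich barcodes. In hyperoxia 43 of 50 barcodes were below the room air median and 0 were above the room air maximum. In AT2 cells it was at 39.4 and 43.2 CPM, and in club cells it had 0 UMIs in room air and 8.10 CPM in hyperoxia. B cells had 19.9 and 8.10 CPM and all other kept barcodes 41.5 and 30.3 CPM.

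Hes1 (chr16:30064384-30067796), the main effector of Notch signalling, was at 528.2 CPM (482.3 to 577.2) in room air ciliated cells and 254.6 CPM (228.3 to 283.2) in hyperoxia. The log2 ratio was -1.05 in all barcodes and -1.06 in the lower range, where it was -1.51 without Sftpc-rich or Col1a1-rich barcodes, and 42 of 50 hyperoxia barcodes were below the room air median of 573.5 CPM. Hes1 was lower in other kinds as well. It was at 346.8 and 216.6 CPM in club cells, 125.4 and 56.3 in AT2 cells and 629.4 and 294.1 in endothelial cells, and close to equal in B cells at 99.2 and 98.4. Of 16 Notch pathway genes 4 passed the limits in ciliated cells, and Hes1 was the 1 past 2-fold. Of all genes 0.641% were past 2-fold lower.

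Cdkn1c, a cell cycle inhibitor, was at 1350 and 566.0 CPM in ciliated cells (log2 ratio -1.25, -1.02 in the lower range). It stood at 0.11 in the lower range once the deepest barcode of each library was also left out. Sfn, an epithelial 14-3-3 protein, was at 190.9 and 68.7 CPM (-1.47, -2.87 in the lower range, -0.55 there without the deepest barcodes). Elf3, an epithelial transcription factor, was at 106.3 and 50.03 CPM (-1.09). Among other genes lower in all ciliated barcodes, Cyr61 was at 300.4 and 144.1 CPM (-1.06, -0.39 in the lower range). Errfi1 was at 143.2 and 70.9 CPM (-1.01, -0.83 in the lower range), but at 0.94 there without the deepest barcodes and at 0.95 without Sftpc-rich or Col1a1-rich ones. Sfta2 was at 284.1 and 122.5 CPM (-1.21) but at 0.65 in the lower range. Sfn and Elf3 each had 0 of 50 hyperoxia barcodes above the room air maximum. Of 19 immediate early and heat shock genes, which also respond to tissue dissociation, 17 were lower in hyperoxia (median -0.40, and -0.48 with 16 of 19 lower in the lower range). Among all genes 81.95% were higher, and 50.7% in the lower range. Atf3 was the 1 past 2-fold lower, at 493.5 and 236.0 CPM, against 0.641% of all genes. The 14 injury and repair genes that passed in the lower range were all lower, 11 past 2-fold, with a median of -1.40. There 4.4% of all genes were past 2-fold lower. Without the deepest barcode of each library 8 of 11 were lower, 0 were past 2-fold and the median was -0.51.

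Trp53inp1, a p53-induced protein, was the p53 target past 2-fold in ciliated cells. It had 52.1 CPM (38.4 to 69.0) in the room air group, against 165.8 CPM (144.7 to 189.1) after hyperoxia. The log2 ratio was 1.67, and 1.51 in the lower range (1.43 without Sftpc-rich or Col1a1-rich barcodes). Of 50 hyperoxia barcodes 40 were above the room air median of 54.8 CPM. It was higher in AT2 cells too (26.1 and 78.9 CPM) and in stromal cells (67.5 and 212.7 CPM). B cells had 91.8 and 139.3 CPM and all other kept barcodes 55.1 and 124.7 CPM. The room air ciliated level was thus below that of B cells. Cdkn1a, the p53-induced cell cycle inhibitor, was at 241.8 and 413.7 CPM in ciliated cells, short of 2-fold. Of 7 p53 targets that passed, 5 were higher and Trp53inp1 was past 2-fold, with a median of 0.36, near the 0.37 of all genes. Among all genes 81.95% were higher and 6.1% past 2-fold higher.

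The antioxidant list in ciliated cells had 19 of 24 genes higher (median 0.50), and 13 of 24 in the lower range (0.12). Of all genes compared 81.95% were higher, with a median of 0.37, and 50.7% in the lower range, with a median of 0.01. Past 2-fold were 3 higher and 1 lower, which was Mt2, against 6.1% and 0.641% of all genes. None of the 3 was past 2-fold in the lower range or with the total without Scgb1a1 (Gclm 0.996, Me1 0.90, Sod1 0.90). Gclm, the modifier subunit of the enzyme that begins glutathione synthesis, was at 92.2 and 225.5 CPM (log2 ratio 1.29, 0.72 in the lower range). Me1, which makes NADPH, was at 44.5 and 101.6 CPM (1.19, 0.88 in the lower range). Sod1, the cytosolic superoxide dismutase, was at 135.6 and 310.7 CPM (1.20, 0.69 in the lower range). NRF2, the factor that induces many of these genes, binds elements with the core TGACNNNGC. That core was searched on both strands and lay in 10 of 35 antioxidant windows (28.6%) and in 12.4% of all windows. By gene it lay in 10 of 27 antioxidant genes. Of these, Nfe2l2, Srxn1, Prdx1, Pgd, Txnrd1 and G6pdx were not counted past 2-fold in all ciliated barcodes. The other 4 were the antioxidant genes past 2-fold there and are shown with the match in capitals. They are Gclm (chr3:122245413-122245442, plus strand), Me1 (chr9:86695901-86695930, minus), Sod1 (chr16:90220696-90220725, plus) and Mt2 (chr8:94172529-94172558, plus).
Gclm: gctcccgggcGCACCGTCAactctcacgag
Me1: gatgccgccgTGACTCAGCgcttctcgcgg
Sod1: gccaaggtggGCGTGGTCAgactcaggcct
Mt2: aaagggggtgTGACTCAGCgcggggggtgg
In Gclm and Sod1 the core lies on the other strand. Mt2 held the same 9 bases as Me1 although its level differed in the opposite direction. A link between the core and these levels was not tested.

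Other genes named by the rule of greatest ratio were higher in all ciliated barcodes, with lower-range values that varied. Chil1, Cxcl17, AW112010 and AU040972 had log2 ratios of 2.07, 2.08, 2.60 and 1.68 in all barcodes, and of 0.12, 0.20, -1.37 and 0.03 in the lower range. Without the deepest barcodes there, Chil1 had 0 UMIs in room air and was at least 3.25 against a floor of 3 UMIs over the library. Cxcl17 and AU040972 were at 0.78 and -0.062, and AW112010 was at 4.26 with only 1 UMI in room air. PISD (1.81, 2.02 in the lower range) and Ccdc34 (1.60, 1.31) stayed past 2-fold in the lower range, Ccdc34 falling to 0.88 without Sftpc-rich or Col1a1-rich barcodes, and Dpcd was at 1.49 and 0.51. Spink5, a serine protease inhibitor of epithelia, was at 24.9 and 418.2 CPM (4.07, 1.45 in the lower range) and had a UMI in 3 of 19 and 13 of 50 barcodes, against 0.295% and 1.41% of B cells at their lower depth. Of its UMIs 21 of 23 in room air and 186 of 560 in hyperoxia lay in barcodes with at least 1000 Sftpc UMIs. In the lower range without Sftpc-rich or Col1a1-rich barcodes neither library had more than 3 Spink5 UMIs, so no ratio is given there. Aldh1a1, a retinal dehydrogenase, was at 790.6 and 1685 CPM (1.09, 1.05 in the lower range). Of 18 cell cycle genes 3 passed the limits, all past 2-fold higher, against 6.1% of all genes. Among them Top2a had 2 UMIs in room air and 142 in hyperoxia, so it met the limits only through hyperoxia. Stmn1 was at 62.9 and 179.2 CPM. Ccno, which marks cells amplifying centrioles, had 9 or more UMIs in 1 of 19 room air barcodes and 3 of 50 in hyperoxia, and those 3 had 11 to 29 of the Top2a UMIs each. These barcodes were all in the upper Scgb1a1 range. The highest Top2a count, 34 UMIs beside 21 of Mki67, was in the lower-range hyperoxia barcode with 364 Col1a1 UMIs, and Stmn1 was at -0.40 in the lower range without Sftpc-rich or Col1a1-rich barcodes. In B cells the summed cell cycle genes were at 964.9 and 1936 CPM. Markers of other lineages stood beside these results. The summed AT2 markers were 3903 and 10340 CPM and stromal markers 2416 and 4463 CPM, and their part in the results was not tested.

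**Figure D4:**
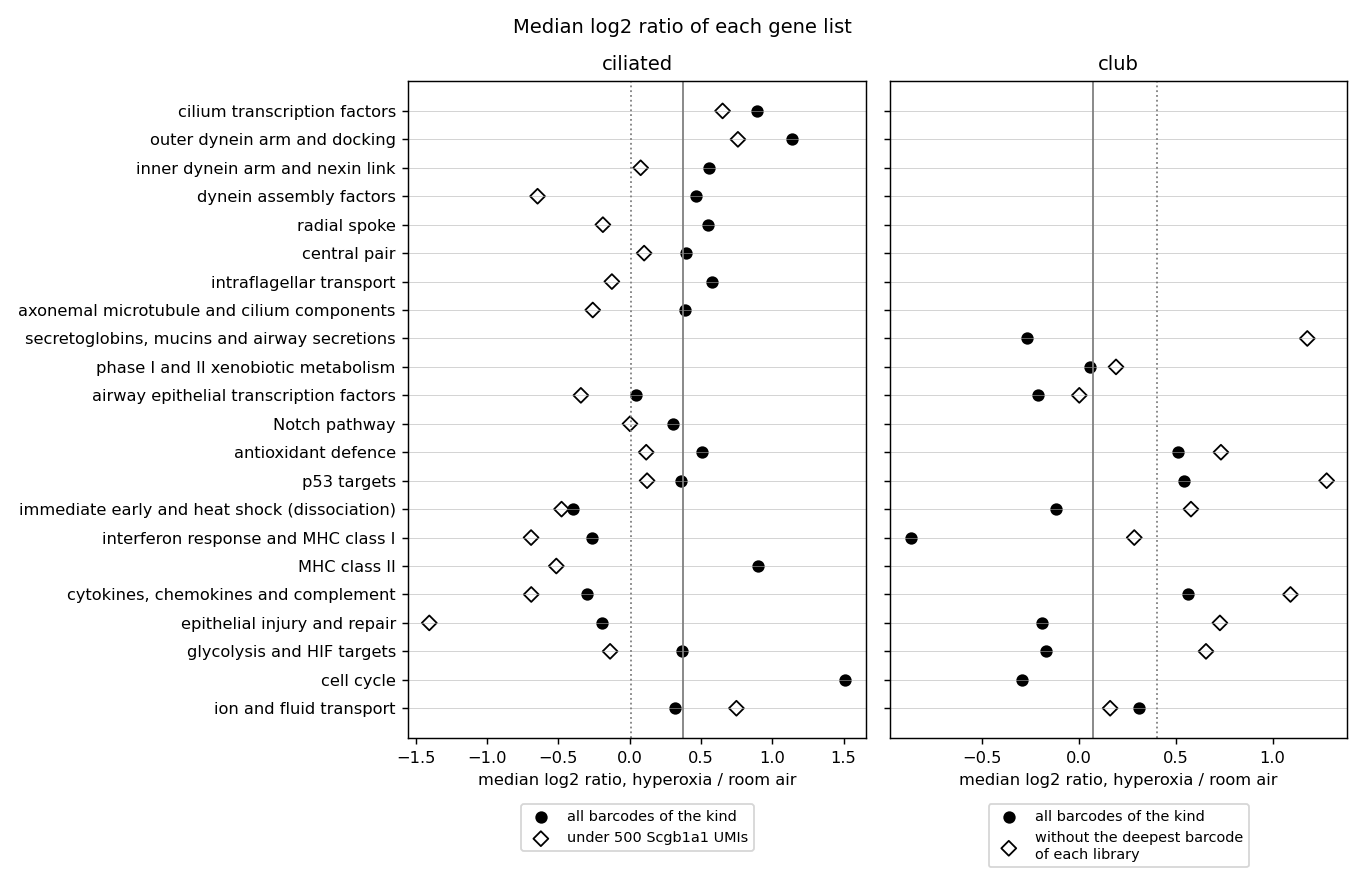
Each row is a gene list and the horizontal axis is its median log2 ratio, hyperoxia over room air, in ciliated (left) and club (right) barcodes. Filled circles are all barcodes, open diamonds are ciliated barcodes under 500 Scgb1a1 UMIs or club barcodes without the deepest of each library, and the solid and dotted vertical lines are the medians of all genes compared in each set, 0.37 and 0.01 on the left and 0.07 and 0.40 on the right.

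In club cells Scgb1a1 and Scgb3a2 were short of 2-fold between the groups. Scgb1a1 was at 339200 CPM in room air, against 299300 in hyperoxia (log2 ratio -0.18), and the single-barcode medians were 400600 and 316100 CPM. Scgb3a2, a secretoglobin with growth factor activity, was at 34620 and 25220 CPM (-0.46), with medians of 14360 and 14960 CPM. Cyp2f2, the P450 that activates naphthalene and chose the members, was at 3796 and 3521 CPM. Of 25 phase I and II enzymes that passed the limits, 13 were higher and 12 lower, with a median of 0.06 (0.19, with 15 of 23 higher, without the deepest barcodes). Among all genes 55.34% were higher, and 71.79% without the deepest barcodes. Fmo2 and Ephx1 were past 2-fold higher, and Gsto1, Sult1d1, Adh7 and Pon1 lower, against 4.53% and 4.18% of all genes. Fmo2, a flavin monooxygenase, was at 229.4 and 587.1 CPM (1.36, 0.54 without the deepest barcodes).

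The room air club level rests on 5 barcodes, of which the deepest had 219035 of 374851 UMIs. This barcode also had a makeup of its own. It held 6289 of the 6305 room air Scgb3a1 UMIs, 492 of the 494 Muc5b UMIs and 133 of the 134 Ifi27l2a UMIs. The stromal marker sum in room air club cells, 2556 CPM against 285.8 CPM in hyperoxia, came with 46 Col1a1 UMIs in this barcode. Club ratios are therefore mostly followed by their value without the deepest barcode of both libraries, for which 296 genes were past 2-fold higher and 53 lower and the median of all genes was 0.40.

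Among the genes compared barcode by barcode in club cells, Chil1, a chitinase-like secreted protein, had the most hyperoxia barcodes above every room air barcode. Those genes were chosen by their ratios in these data or by hand, so the rank holds for the chosen genes only. This count, like those for the genes below, was not made over all genes. The Chil1 level (chr1:134182176-134190181) in the 5 room air barcodes was 479, 401, 548, 235 and 606 CPM, the deepest first. In hyperoxia the lowest was 0, the median 2155 and the highest 5644 CPM. Of 42 hyperoxia barcodes 36 were above the highest in room air, and 5 were below the room air median. Pooled, Chil1 was at 466.9 CPM (400.2 to 541.4) and 2476 CPM (2393 to 2561), for a log2 ratio of 2.41, and 2.5 without the deepest barcodes. AT2 cells, which also make Chil1, had close levels in both groups (2062 and 2077 CPM). Leaving out the hyperoxia club barcodes under 500 Scgb1a1 UMIs, among them those with Sftpc, gave a log2 ratio of 2.41. In B cells Chil1 was at 7.87 and 52.1 CPM.

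Cxcl15, a neutrophil-attracting chemokine of lung epithelium, was also higher. The room air club barcodes had 54.8, 748, 738, 353 and 1030 CPM, and the hyperoxia barcodes a median of 1344 and a highest value of 6649 CPM. The groups overlapped, and 23 of 42 were above the highest in room air. The pooled levels were 336.1 and 1805 CPM (log2 ratio 2.43, 1.32 without the deepest barcodes). AT2 cells had 6756 CPM of Cxcl15 in room air and 4026 CPM in hyperoxia, the opposite order.

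Gclc, the catalytic subunit of the enzyme that begins glutathione synthesis, was higher in club cells of hyperoxia. The room air barcodes had 77.6, 107, 169, 0 and 60.6 CPM. The hyperoxia median was 164.9 and the highest 960.1 CPM, and 20 of 42 were above the highest in room air. Pooled levels were 90.7 CPM (62.8 to 126.7) and 256.4 CPM (230.1 to 284.8), and the log2 ratio was 1.499, or 1.22 without the deepest barcodes. Gclc was higher in AT2 cells (209.1 and 416.8 CPM) and AT1 cells (27.3 and 110.9 CPM) as well. Of 23 antioxidant genes 18 were higher in club cells, with a median of 0.51 against 0.07 for all genes. Gclc was the 1 past 2-fold. Among all genes 55.34% were higher and 4.53% past 2-fold higher. Without the deepest barcodes 20 of 23 were higher, 6 past 2-fold, with a median of 0.73 against 0.40. There 71.79% of all genes were higher, and 296 of 1560 were past 2-fold higher.

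Cdkn1a was nearly absent in room air club cells, with 4 UMIs in 2 of 5 barcodes, and had 160 UMIs in 29 of 42 hyperoxia barcodes. The levels were 10.7 CPM (2.91 to 27.3) and 117.9 CPM (100.3 to 137.6), a ratio of 11.1 (4.23 to 41.0). The room air level rests on those 4 UMIs, 3 of them in the deepest barcode. In B cells 7.97% and 17.3% of barcodes had a Cdkn1a UMI, at medians of 4632 and 2950 UMIs against 47446 and 31090.5 in club cells. Pooled, B cells had 39.35 and 81.71 CPM. The room air club level was below that of B cells, and the hyperoxia club level above it. Cdkn1a was higher in hyperoxia in other kinds too, at 36.7 and 349.8 CPM in AT2 cells, 41.7 and 714.8 in stromal cells and 165.2 and 1236 in endothelial cells. Bax, a p53-induced gene of apoptosis, was at 61.4 and 126.0 CPM in club cells. Its log2 ratio was 1.04, 1.26 without the deepest barcodes and 0.48 with the B cell level subtracted. Of 5 p53 targets that passed, 3 were higher, Cdkn1a and Bax past 2-fold, with a median of 0.54. Among all genes 55.34% were higher and 4.53% past 2-fold higher, with a median of 0.07. Without the deepest barcodes 4 of 4 that passed were past 2-fold higher, with a median of 1.28. There 296 of all 1560 genes were past 2-fold higher, with a median of 0.40.

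**Figure D5:**
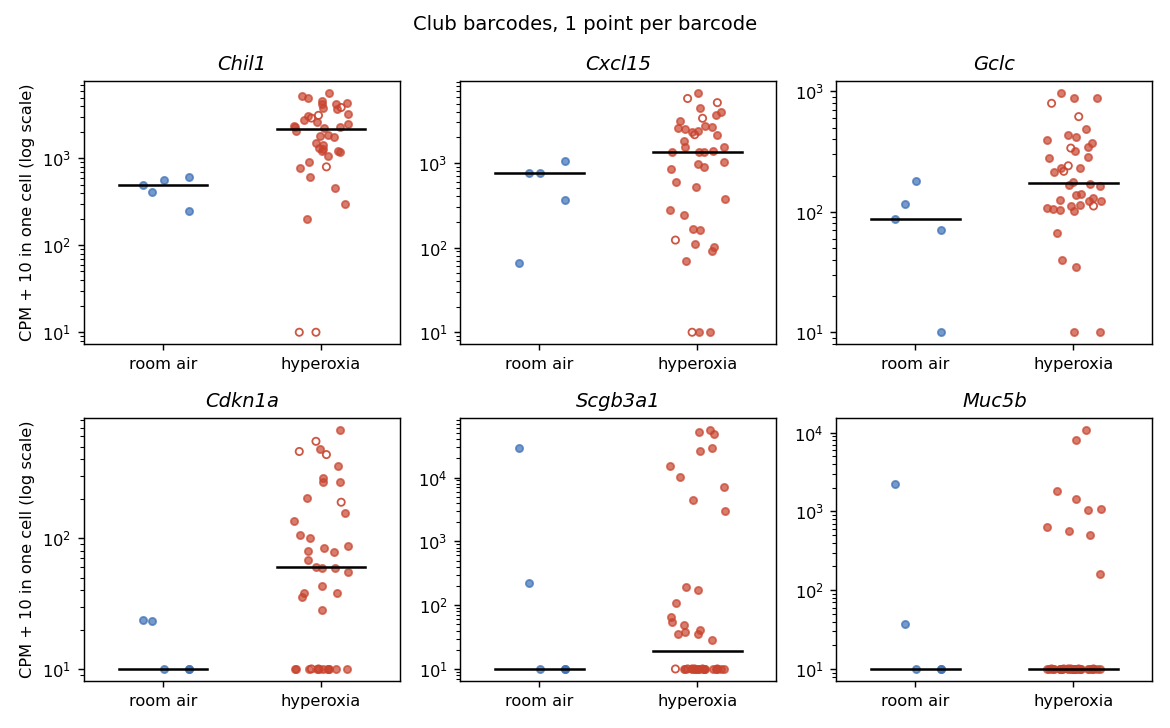
Each point is 1 club barcode (5 in room air, 42 in hyperoxia), with CPM plus 10 on a log axis, filled where Scgb1a1 was at 500 UMIs or more and open otherwise, and bars mark medians. For Chil1, 36 of 42 hyperoxia barcodes lie above every room air barcode, whereas Scgb3a1 and Muc5b are high in 1 room air barcode and in a minority in hyperoxia.

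Further genes named by their ratio were higher in hyperoxia club cells. Spink5 had 6 UMIs in 1 of 5 room air barcodes and 695 UMIs in 20 of 42 hyperoxia barcodes (16.01 and 512.0 CPM, log2 ratio 4.999, 3.77 without the deepest barcodes). AT2 cells express Spink5 as well, at 243.9 and 548.5 CPM, but 638 of the hyperoxia club UMIs lay in 16 of the 38 barcodes with under 1000 Sftpc UMIs. In B cells 0.295% and 1.41% of barcodes had a Spink5 UMI. Lcn2, an iron-sequestering defence protein, was at 266.8 and 724.9 CPM (1.44, 2.502 without the deepest barcodes), with single-barcode medians of 117.5 and 463.0 CPM. Sftpd, a collectin that binds microbes, was at 747.0 and 2097 CPM (1.49, 1.06 without). Ctsh, a lysosomal protease, was at 160.1 and 439.1 CPM (1.46, 1.63 without), and Creg1 at 88.0 and 271.8 CPM (1.63, 1.60 without). Nupr1, a stress-induced nuclear protein, was at 264.1 and 773.5 CPM (1.55, 0.94 without). Chia1, an acidic chitinase, was at 61.4 and 402.2 CPM (2.71, 1.09 without), and 35.7% of its hyperoxia UMIs lay in 1 barcode. Hp, the haemoglobin-binding protein haptoglobin, was at 2991 and 6836 CPM (1.19, 0.21 without), with medians of 4542 and 4897 CPM. Without the deepest barcodes Hp was thus far from 2-fold, whereas Spink5, Lcn2, Ctsh and Creg1 stayed past it. Socs3, a feedback inhibitor of cytokine signalling, was at 58.7 and 167.2 CPM (1.51, 1.42 without).

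Some genes lower in hyperoxia club cells kept their direction without the deepest barcodes. Elf3 was at 146.7 and 51.6 CPM (log2 ratio -1.51, -0.84 without the deepest barcodes). Ier3, an immediate early gene, was at 197.4 and 78.8 CPM (-1.32, -1.23 without). Nfkbia, the inhibitor of NF-kappa-B, was at 261.4 and 89.1 CPM (-1.55, -1.79 without), and Icam1, an adhesion molecule, was higher at 37.4 and 110.5 CPM (1.57, 1.27 without). Msln was at 328.1 and 38.3 CPM (-3.10, -0.40 without). Gm20186 was at 240.1 and 62.6 CPM (-1.94, -2.36 without). Elf3 was thus lower in hyperoxia in club and ciliated cells alike.

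Mucous secretory transcripts were concentrated in a minority of club barcodes. Muc5b was at 10 UMIs or more in 1 of 5 room air barcodes and 9 of 42 in hyperoxia, a split chosen after the values were seen. The same barcodes held Scgb3a1, the secretoglobin of larger airways. Those 9 had 113 to 2052 Scgb3a1 UMIs with a median of 826, and the other 33 had 0 to 46 with a median of 0. The antimicrobial lectin Reg3g followed, with 0 to 514 UMIs (median 164) in the 9 and 0 to 1 in the 33. The room air barcode had 6289 Scgb3a1, 1819 Reg3g and 492 Muc5b UMIs. Bpifa1, a secreted protein of the upper airway lining, had 975 of 975 room air UMIs in that barcode and 2684 in the highest hyperoxia barcode. The pooled ratios of this group follow that barcode. Scgb3a1 was at 16820 and 5785 CPM (log2 ratio -1.54), and at 5.89 without the deepest barcodes. Muc5b was at 1318 and 392.7 CPM (-1.75, 5.01 without), Reg3g at 4973 and 1287 CPM (-1.95, 2.23 without) and Agr2, needed for mucin folding, at 570.9 and 96.5 CPM (-2.57, 2.40 without). Of 27 airway secretion genes 5 were past 2-fold higher and 9 lower, with a median of -0.27. Without the deepest barcodes 14 of 24 were past 2-fold higher and 0 lower, with a median of 1.18. Among all genes 4.53% were past 2-fold higher and 4.18% lower. Without the deepest barcodes these were 296 and 53 of 1560 genes. The deepest barcode also held 89.8 to 100% of the room air UMIs of Ifi27l2a, Hist1h1c, Msln, Agr2, Ltf, Hmgn2 and Chad, all past 2-fold lower in hyperoxia. No direction for mucous genes can be read from these libraries.

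Further lists in club cells gave small numbers, which stand beside a shift of all genes. Among all genes 55.34% were higher in hyperoxia (median 0.07), and 71.79% without the deepest barcodes (median 0.40). With all barcodes 4.18% of genes were past 2-fold lower. Of 7 interferon and MHC class I genes 6 were lower, Ifi27l2a and H2-K1 past 2-fold, with a median of -0.87. Without the deepest barcodes 4 of 4 that passed were higher (median 0.28). Of 19 immediate early and heat shock genes 13 were lower (median -0.12), and 13 of 16 were higher without the deepest barcodes (0.58). Of 12 injury and repair genes 8 were lower (median -0.19), and 12 of 12 were higher without them (0.73). Of 8 airway epithelial transcription factors that passed, Elf3 was the 1 past 2-fold. Sox2, the factor of the conducting airways, was at 106.7 and 100.2 CPM. Nkx2-1, the factor of lung epithelium, was at 122.7 and 144.4 CPM. Notch2, the receptor needed for the secretory fate, was at 40.0 and 46.4 CPM. AT2 markers summed to 682.9 CPM in room air, against 17600 in hyperoxia, where single barcodes ran from 449.5 to 295700 CPM with a median of 3031. Myeloid markers summed to 37.4 and 1573 CPM, with hyperoxia barcodes from 0 to 37460 CPM and a median of 80.4. Endothelial markers summed to 40.0 and 85.5 CPM, with Cdh5 at 0 by the rule. The part of these lineages in the results was not tested beyond the sets given.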

How the data were processed

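Single cells of perfused, enzymatically dissociated whole lungs had been run on 10X Chromium. The authors deposited raw UMI counts per gene and barcode, aligned to mm10. Their methods, the submitters' processing notes (Cell Ranger 2.1.1) and the file headers name different Cell Ranger versions, and sources differ on the kit. Members, gene lists and tests were chosen with earlier results of these data known. UMIs were summed per kind and library and scaled to CPM. Genes needed a mean of 50 CPM and 50 UMIs in all, and a library at 0 was set to a floor of 3 UMIs. Named genes were list members and, per kind, the 10 greatest and 10 smallest ratios among genes with a mean of 100 CPM, a UMI in 20% of barcodes and at least the level of other kept barcodes in the higher library. The 20 genes that mark each kind most, and a few list genes chosen after their values were seen, were also named. Comparator cells were set by marker thresholds, and B cells served as background for free RNA. Doublets were left in, and a neighbour-based ranking was tried as an alternative. Shares have Clopper-Pearson and ratios exact conditional 95% intervals. Promoters came from RefSeq (GRCm38.p6) and gene positions from GENCODE M21, where 27722 of 27998 identifiers matched. The computation of ratios was tested on simulated data. Python 3.11.15, numpy 2.4.6, scipy 1.17.1, pandas 2.3.3, scikit-learn 1.9.0, matplotlib 3.10.9, R 4.3.3 and edgeR 4.0.16 (TMM factors only) were used.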

Additional observations from a re-analysis of the deposited data

Results flagged for a closer look

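Genes past 2-fold in opposite directions in ciliated and club cells are listed here, and the difference between the kinds was not tested. Col3a1, Col1a2, Col1a1 and Sparc, all matrix genes of stromal cells, had log2 ratios of 2.78, 1.59, 1.68 and 1.42 in ciliated cells and of -2.65, -4.21, -3.92 and -1.84 in club cells. Icam1 was at -1.26 in ciliated and 1.57 in club cells. These 5 kept both directions in the sets split at 500 Scgb1a1 UMIs, although Icam1 was higher in ciliated cells there once the deepest barcode of each library was left out. Those sets keep the Col1a1-rich barcodes. In ciliated barcodes under 500 Scgb1a1 UMIs, 135 of 136 room air Col1a1 UMIs lay in 1 barcode. In hyperoxia 2 barcodes held 364 and 220 of 638. The deepest room air club barcode held 46 Col1a1 UMIs, and the other room air club barcodes held 0. The matrix genes were not compared without these barcodes. The secretory genes Scgb3a1 and Tff2 were at 4.42 and 4.86 in ciliated cells and at -1.54 and -1.42 in club cells, and Gsto1 at 1.37 and -1.60. Clca1 and Muc5b had 0 UMIs in room air ciliated cells, so their ciliated log2 ratios are lower bounds, at least 7.23 and 5.29 against a floor of 3 UMIs over the library, beside -1.03 and -1.75 in club cells. Among ciliated barcodes under 500 Scgb1a1 UMIs these 4 secretory genes had 0 UMIs in room air and 0 to 3 in hyperoxia, at or below that floor, so no ratio is given there, and Gsto1 was at -0.099. For Scgb3a1 and Muc5b 1 barcode on each side held most UMIs. In hyperoxia 1 ciliated barcode had 1188 and 161, and no other had more than 67 and 4. In room air the deepest club barcode had 6289 and 492, and the other 4 had at most 16 and 2.

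Barcodes outside the cell limits also held ciliated markers. In hyperoxia 19 of 1512 such barcodes (1.26%, Clopper-Pearson interval 0.758 to 1.96%) had at least 3 UMIs over the 3 markers. In room air 2 of 425 (0.471%, 0.0570 to 1.69%) had them.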

How the results depend on the processing

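With 1 library per group no paired analysis was possible because no replicate exists. The club comparison rests on 5 room air barcodes, of which 1 had 219035 of 374851 UMIs. The intervals cover counting error only. Of the shares and counts recomputed under the alternatives 57 stayed close to the reported value and 29 moved. Of the recomputed ratios of named genes 666 stayed close, 232 moved and 54 changed direction. The Scgb1a1 sets, those sets without barcodes of at least 1000 Sftpc or 100 Col1a1 UMIs, the set that allowed 1 UMI of Ptprc and Cdh5 and the total without Scgb1a1 were chosen after seeing the data. The cause of these shifts was not tested. Taken over barcodes with Epcam and without Ptprc and Cdh5 (202 in room air, 858 in hyperoxia), the difference in share was -3.14 percentage points for ciliated (16 and 41) and 2.45 for club cells (4 and 38). Genes past 2-fold higher in ciliated cells, 162 as reported, numbered 86 with the total without Scgb1a1, 55 with TMM factors, 279 with the mean over single cells, 22 after thinning to 2000 UMIs, 508 with a mean of at least 10 CPM and 24 with at least 200 CPM. Those lower, 17 as reported, numbered 116 in the Scgb1a1 sets, 90 in those sets without the deepest barcode, 98 in them without Sftpc-rich or Col1a1-rich barcodes, 60 with the total without Scgb1a1, 52 with TMM factors, 146 with the mean over single cells, 27 with the B cell level subtracted, 38 at 10 CPM and 6 at 200 CPM. In club cells the 78 higher became 120 with looser markers, 123 with the total without mitochondrial, ribosomal and haemoglobin genes, 211 with the mean over single cells, 296 without the deepest barcode of each library, 257 in the Scgb1a1 sets without it, 44 after thinning, 232 at 10 CPM and 21 at 200 CPM. The 72 lower became 130 with the total without Scgb1a1, 34 with the mean over single cells, 2 after thinning and 21 at 200 CPM.

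These log2 ratios changed direction. In the Scgb1a1 sets of ciliated cells AW112010 was at -1.37, Sfta2 at 0.65 and Scgb1a1 at 0.72. Without Sftpc-rich or Col1a1-rich barcodes as well, AU040972 was at -0.15, Stmn1 -0.40, Icam1 0.53, Errfi1 0.95, Sfta2 1.01 and Scgb1a1 1.45. In the Scgb1a1 sets without the deepest barcode, AU040972 was at -0.062, Cdkn1c 0.11, Icam1 0.66, Errfi1 0.94, Scgb1a1 1.32 and Sfta2 1.92, and in club cells Chad was at 0.53, Ifi27l2a 0.54, Adh7 0.67, Hist1h1c 0.67, H2-K1 0.71, Ltf 1.84, Reg3g 2.36, Agr2 2.53, Tff2 4.79, Muc5b 5.14 and Scgb3a1 6.02. With all club barcodes but the deepest of each library, Hmgn2 was at 0.003463, Chad 0.40, Ifi27l2a 0.41, Adh7 0.59, H2-K1 0.63, Hist1h1c 0.76, Ltf 1.71, Reg3g 2.23, Agr2 2.40, Tff2 4.66, Muc5b 5.01 and Scgb3a1 5.89. With the mean over single cells, AU040972 was at -0.11 in ciliated cells, and Scgb3a1 was at 0.045, Reg3g 0.077, Tff2 0.37 and Muc5b 0.45 in club cells. After thinning to 2000 UMIs, where most levels are near 1 UMI, Creg1 was at -0.13, Nupr1 -0.37, Socs3 -0.75, Cdkn1a -0.85, Icam1 -1.196, Bax -2.33, Reg3g 0.17, Nfkbia 0.25 and Muc5b 0.39 in club cells, and Cyr61 0.032 and Errfi1 0.49 in ciliated cells.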
